A study of Mus musculus with 12 samples.

Results

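Foxp3 and the Ikaros family of zinc finger factors were followed through 4 populations of sorted mouse T cells. The genes were Foxp3, Ikzf1 (Ikaros), Ikzf2 (Helios), Ikzf3 (Aiolos) and Ikzf4 (Eos), and every probe that the platform annotation assigns to them was taken. That gave 11 of the 31641 probes deposited, 4 for Foxp3, 5 for Ikzf1 and 1 each for Ikzf2 and Ikzf3. Ikzf4 was not analysed here, so 4 of the 5 genes have values, among 17759 genes with a probe of a single symbol. All 11 probes passed the filter on dim signals, which asked for a value above the array's median on at least 3 of the 12 arrays. The probe with the highest mean over the 12 arrays stands for its gene, and the other probes are given beside it.

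The 4 populations were regulatory T cells (Treg) and effector T cells (Teff) of 2 genotypes, with 3 arrays each. Arrays labelled CKO hold cells lacking Blimp1, the transcriptional repressor encoded by Prdm1, and arrays labelled Ctrl hold cells that have it. All cells came from C57BL/6 mice, aged 8 to 12 weeks, that carried a Foxp3 green fluorescent reporter, and were injected as naive CD4+ CD44low T cells, both genotypes together in equal parts, into RAG1-/- hosts that lack lymphocytes of their own. They were recovered 6 to 8 weeks later, pooled over spleen, gut-draining nodes and large bowel, sorted on CD4, the allotype marker and Foxp3 (positive for Treg, negative for Teff), and stimulated for 4 h with PMA and ionomycin. The groups are CKO Treg, Ctrl Treg, CKO Teff and Ctrl Teff. The sample titles name the Treg groups pTreg, and Treg below stands for these cells. The Cre driver behind the deletion, and whether arrays of a group come from separate hosts, are not given in the labels, and p-values measure only how these samples spread, which may be technical.

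Foxp3 is a forkhead transcription factor that is needed for the development and the suppressive function of Treg. The Ikaros family proteins bind DNA through amino-terminal zinc fingers, pair with one another through carboxy-terminal ones, and recruit corepressor complexes such as NuRD. Ikaros is present throughout the lymphoid lineage, Helios is abundant in Treg of thymic origin and is also induced on activation, Aiolos is prominent in B cells and in some helper T cell subsets, and Eos is a corepressor partner of Foxp3.

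Because the sort was made on a Foxp3 reporter, the sequence before the Foxp3 start is shown. RefSeq gives the mouse gene on the plus strand of chromosome X, and the 250 bases that precede its most upstream annotated start lie at chrX:7579426-7579675 in build GRCm38.p6. Capitals mark TATAAA, the core of a TATA box, which begins 32 bases before the start and occurs there 1 time.
Foxp3 upstream of start: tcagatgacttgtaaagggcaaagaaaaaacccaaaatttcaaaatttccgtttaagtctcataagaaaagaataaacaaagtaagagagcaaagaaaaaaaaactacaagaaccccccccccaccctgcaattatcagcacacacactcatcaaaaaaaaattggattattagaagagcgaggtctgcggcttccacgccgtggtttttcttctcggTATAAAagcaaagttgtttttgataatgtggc
The same motif is in 12.4% of the 32851 promoter windows of this length in the table, searched on both strands. GGGAA, the core letters read by Ikaros proteins, is in 56.2% of windows, GNGAAAG, part of the element bound by Blimp1, in 19.4%, and TGTTTAC, a forkhead element, in 3.2%. None of these 3 motifs occurs in the Foxp3 windows, which says only that these letters are not there. Promoter entries were matched for Foxp3 and Ikzf1 only, 2 of the 5 genes.

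The values are the authors' log2 intensities, and array medians lay between 4.66 and 4.68. Prdm1 itself, on probe ILMN_2597923, was higher in the arrays labelled CKO, by 3.27 ± 0.38 in Treg and 3.34 ± 0.38 in Teff (limma, adjusted p = 0.00953 and 0.0235). The place of that probe relative to the deleted part is not known here, and it does not check the genotype labels, and directions between genotypes are those of the labels. T cell receptor complex genes Cd3d, Cd3e and Cd3g lay between 10.36 and 12.37 on all arrays, Cd4 between 4.95 and 6.40, above the array medians, and of the CD8 chains Cd8a lay between 4.13 and 4.52, below the medians, and Cd8b1 between 8.45 and 10.02, above them on all 12 arrays. Markers of other cells were unevenly spread. The mean of 8 of 8 neutrophil markers ran from 6.28 to 8.92 in CKO Treg, 6.54 to 9.50 in Ctrl Treg, 7.80 to 9.98 in CKO Teff and 6.75 to 10.51 in Ctrl Teff. The 9 of 9 CD8 and NK markers averaged 5.92 to 6.15 in CKO Treg, 6.06 to 6.43 in Ctrl Treg, 6.72 to 8.22 in CKO Teff and 6.63 to 6.77 in Ctrl Teff.

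Helios was the member whose signal differed most between the genotypes. Probe ILMN_1217123 of Ikzf2 read 7.66, 8.97 and 7.62 on CKO Treg arrays 1, 2 and 3, against 9.65, 9.72 and 9.03 on Ctrl Treg arrays 1, 2 and 3. The highest CKO Treg array lay 0.06 below the lowest Ctrl Treg array, so the groups did not overlap, as was the case for 12.3% of all genes tested. Group means were 8.08 ± 0.77 in CKO Treg and 9.47 ± 0.38 in Ctrl Treg (SD, n = 3), a log2 difference of −1.39 ± 0.45 (SE; 95% interval −2.37 to −0.40), or 0.383 of the Ctrl level. With limma over 12119 genes the unadjusted p was 0.0106 and the adjusted p 0.557, so the difference, 230th of all genes by p, did not pass the threshold of 0.05. When same-numbered Treg arrays were treated as pairs, the unadjusted p was 0.00111 and the adjusted p 0.0507. The 3 pair differences were −1.99, −0.75 and −1.42. CKO Treg 2 stood closest to its Ctrl partner, and all pairs had the same sign. Means of neutrophil markers, of CD8 and NK markers and of the 7 of 8 CD4 T cell markers with a probe were lower on CKO Treg 1, 2 and 3 too than on their Ctrl partners. The CD4 T cell set stood at 9.94, 10.04 and 9.68 in CKO Treg against 10.46, 10.12 and 10.13 in Ctrl Treg. Within it Cd28 was higher in CKO in pairs 2 and 3, and Cd3d and Cd4 in pair 2. The CD8 and NK means of pair 2 lay close together (6.05 in CKO Treg against 6.06 in Ctrl Treg). In that pair Cd8a, Klrb1c, Klre1, Klrd1 and Eomes were higher in CKO, as were the neutrophil markers Mmp8, Cxcr2 and Retnlg. Myeloid marker means were higher in CKO in pairs 2 and 3 (6.96, 6.80 and 6.85 in CKO Treg against 7.19, 6.21 and 6.55 in Ctrl Treg). The part of these markers in the Ikzf2 difference was not tested. In sorted bulk RNA, fewer cells with a transcript and less transcript per cell cannot be told apart.

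**Figure D1:**
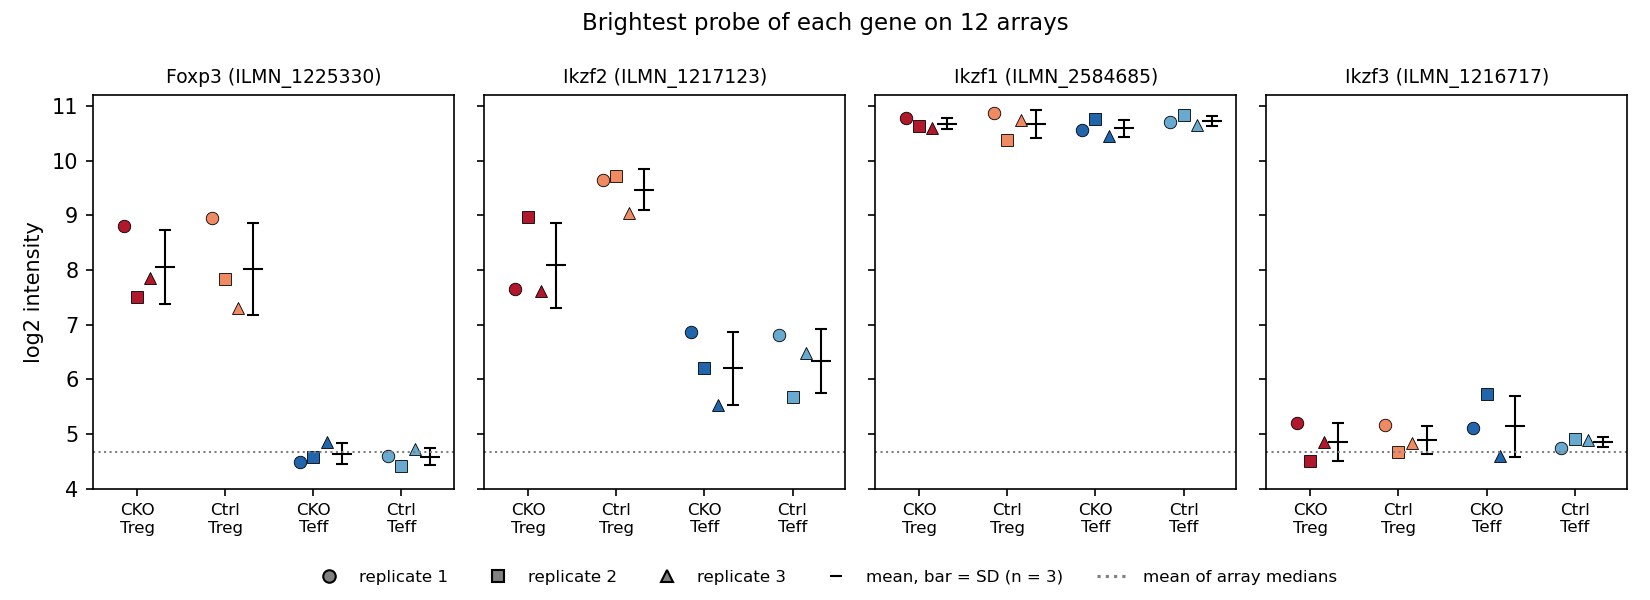
Log2 intensity (vertical axis) of the brightest probe of Foxp3, Ikzf1, Ikzf2 and Ikzf3 on each array of CKO Treg, Ctrl Treg, CKO Teff and Ctrl Teff, left to right. Marker shapes give the replicate number, black bars the mean ± SD (n = 3), and the dotted line the mean of the array medians. Foxp3 and Ikzf2 are higher in both Treg groups than in either Teff group, Ikzf2 is lower in CKO Treg (7.62 to 8.97) than in Ctrl Treg (9.03 to 9.72), and Ikzf1 and Ikzf3 groups overlap.

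Helios was higher in Treg than in Teff without overlap in both genotypes, and the difference passed the threshold in Ctrl only. Teff arrays read 6.86, 6.20 and 5.53 for CKO and 6.82, 5.68 and 6.49 for Ctrl, all above the array medians. In Ctrl cells the Treg mean exceeded the Teff mean of 6.33 ± 0.58 by 3.14 ± 0.45 (95% interval 2.15 to 4.13; limma, adjusted p = 0.00882), which is 8.82-fold. The lowest Ctrl Treg array was 2.22 above the highest Ctrl Teff array. In CKO cells the Treg mean exceeded the Teff mean of 6.20 ± 0.66 by 1.88 ± 0.45 (95% interval 0.90 to 2.87), which is 3.69-fold, with no overlap and a gap of 0.76. Groups did not overlap for 13.7% of all genes in CKO and 14.3% in Ctrl. That comparison had an unadjusted p of 0.00159 and did not pass (adjusted p = 0.114). The call in Ctrl was lost without Ctrl Treg 2, where the difference was 3.01 (adjusted p = 0.0524).

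In Teff the genotypes overlapped for Ikzf2, as they did for all but 6.77% of genes. The difference was −0.13 ± 0.45 (95% interval −1.12 to 0.86), and the pairs gave 0.04, 0.52 and −0.96. The interaction, Treg genotype difference less Teff genotype difference, which tests whether the cell types differ in their genotype difference, was −1.26 ± 0.63 for Ikzf2 (95% interval −2.65 to 0.14; limma, adjusted p = 1.00, and adjusted p = 0.281 with pairs). A larger genotype difference in Treg than in Teff was thus not shown. The same interaction is the Treg minus Teff difference in CKO (1.88) less that in Ctrl (3.14). Whether these differ between genotypes was therefore not shown either. The order of the group means was Ctrl Treg, CKO Treg, Ctrl Teff, CKO Teff, and the last 2 did not differ beyond their spread.

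**Figure D2:**
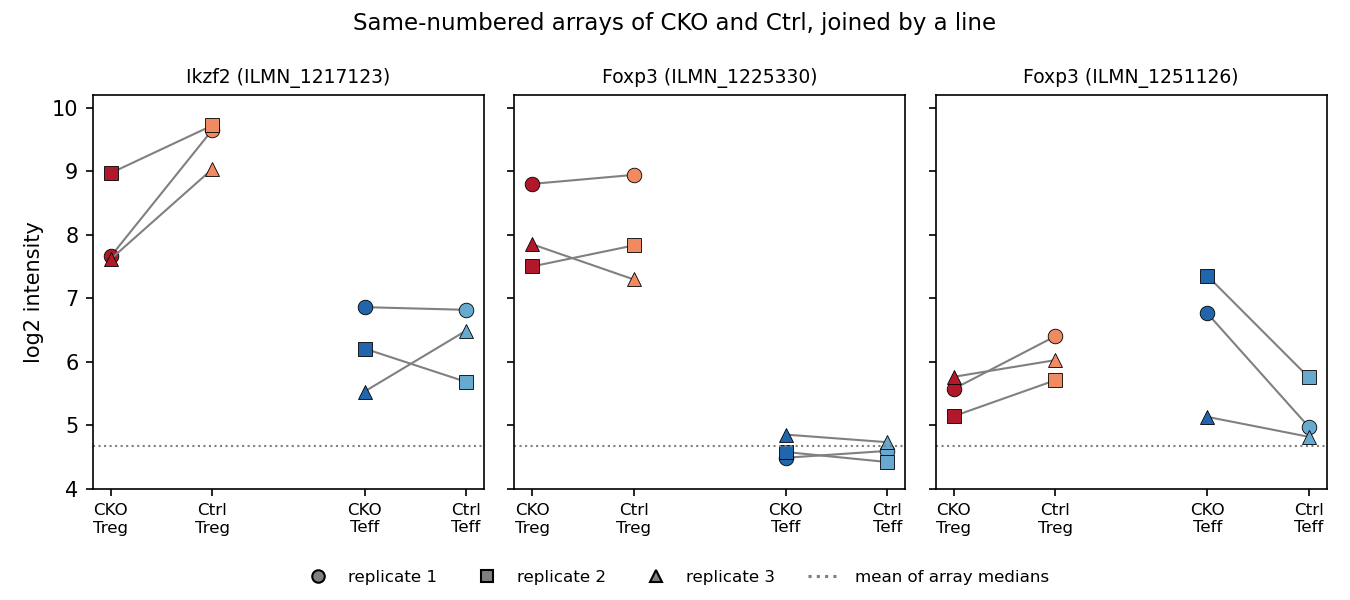
Log2 intensity (vertical axis) of Ikzf2 and of 2 Foxp3 probes, with lines joining the CKO array (left) and the Ctrl array (right) of the same replicate number, in Treg and in Teff. The Ikzf2 lines run upward to Ctrl in all 3 Treg pairs, and are mixed in Teff, whereas the dimmer Foxp3 probe ILMN_1251126 is lower in CKO in the Treg pairs and higher in CKO in the Teff pairs.

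Foxp3 defined the sort, so its difference between Treg and Teff describes the gate and is not a finding. Its brightest probe, ILMN_1225330, read 8.80, 7.50 and 7.85 in CKO Treg and 8.94, 7.83 and 7.29 in Ctrl Treg. It read 4.48, 4.57 and 4.85 in CKO Teff and 4.59, 4.42 and 4.73 in Ctrl Teff, values that straddle the array medians. The Treg arrays numbered 1 were the highest of both genotypes. Between sorted populations the gap without overlap was 2.65 in CKO and 2.56 in Ctrl, and the folds were 10.6 in CKO and 10.9 in Ctrl. Between genotypes the pair differences had mixed signs in Treg (−0.14, −0.33 and 0.55) and in Teff (−0.11, 0.16 and 0.12). The 95% interval of the genotype difference in Treg, −0.86 to 0.92, does not exclude a change of up to nearly 1 log2 unit in either direction. Foxp3 therefore showed a level in CKO Treg that was not distinguishable from Ctrl Treg at this spread. Ikzf2 in the same arrays did not overlap, as was the case for 12.3% of all genes, and did not pass either (limma, adjusted p = 0.557, and adjusted p = 0.0507 with pairs).

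The other Foxp3 probes did not follow the sort in both genotypes, although the annotation assigns all 4 to the same transcript, NM_054039. Probe ILMN_1251126 read 5.57, 5.14 and 5.76 in CKO Treg and 6.40, 5.71 and 6.02 in Ctrl Treg. In Teff it read 6.76, 7.35 and 5.13 in CKO and 4.97, 5.75 and 4.81 in Ctrl. Treg minus Teff for this probe was 0.86 ± 0.49 in Ctrl, in the direction of the sort, and −0.92 ± 0.49 in CKO (limma, adjusted p = 0.756 and 0.695). The groups overlapped in both genotypes. Its highest values were thus on 2 CKO Teff arrays, those sorted as Foxp3-negative. These 2 arrays also had the highest CD8 and NK marker means (7.53 and 8.22, against 6.72 on CKO Teff 3). Within that set Klra7, Klre1, Klrd1, Nkg7 and Eomes were higher there than on CKO Teff 3, Klra7 at 8.21 and 10.84 against 5.78. Cd8a, Ncr1 and Klrb1c lay between 4.37 and 4.80, near the array medians, and Cd8b1 was lower (9.31 and 8.45 against 9.90). The mean of 9 of 10 myeloid markers was 7.35, 7.90 and 6.65 in CKO Teff against 6.09, 7.50 and 5.61 in Ctrl Teff, higher in CKO in each pair as the probe was. Of its members H2-Aa, H2-Ab1, Cd74 and Itgax were higher in CKO in each pair, and Csf1r was lower in each. Cd14 and Lyz2 were lower in CKO in pair 2 (11.24 and 9.58 against 12.04 and 10.32) and higher in the other pairs, and Itgam and Adgre1 were mixed. The part of these markers in the probe's signal was not tested. Tested among all probes, the genotype difference was −0.55 ± 0.49 in Treg and 1.23 ± 0.49 in Teff, and neither it nor the interaction of −1.79 ± 0.69 passed (limma, adjusted p = 1.00 each), in comparisons where 0.0567%, 0.00355% and 0.0106% of probes did. Without CKO Teff 1 and 2 the Teff difference was −0.050. The other 2 probes were dim, with group means of 4.68 to 4.96 for ILMN_2635132 and 4.48 to 4.78 for ILMN_2917180. The Treg and Teff separation of Foxp3 rests on 1 probe, and with the mean of its probes the differences were 0.56 in CKO and 0.99 in Ctrl, neither past the threshold (adjusted p = 0.419 and 0.0949).

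**Figure D3:**
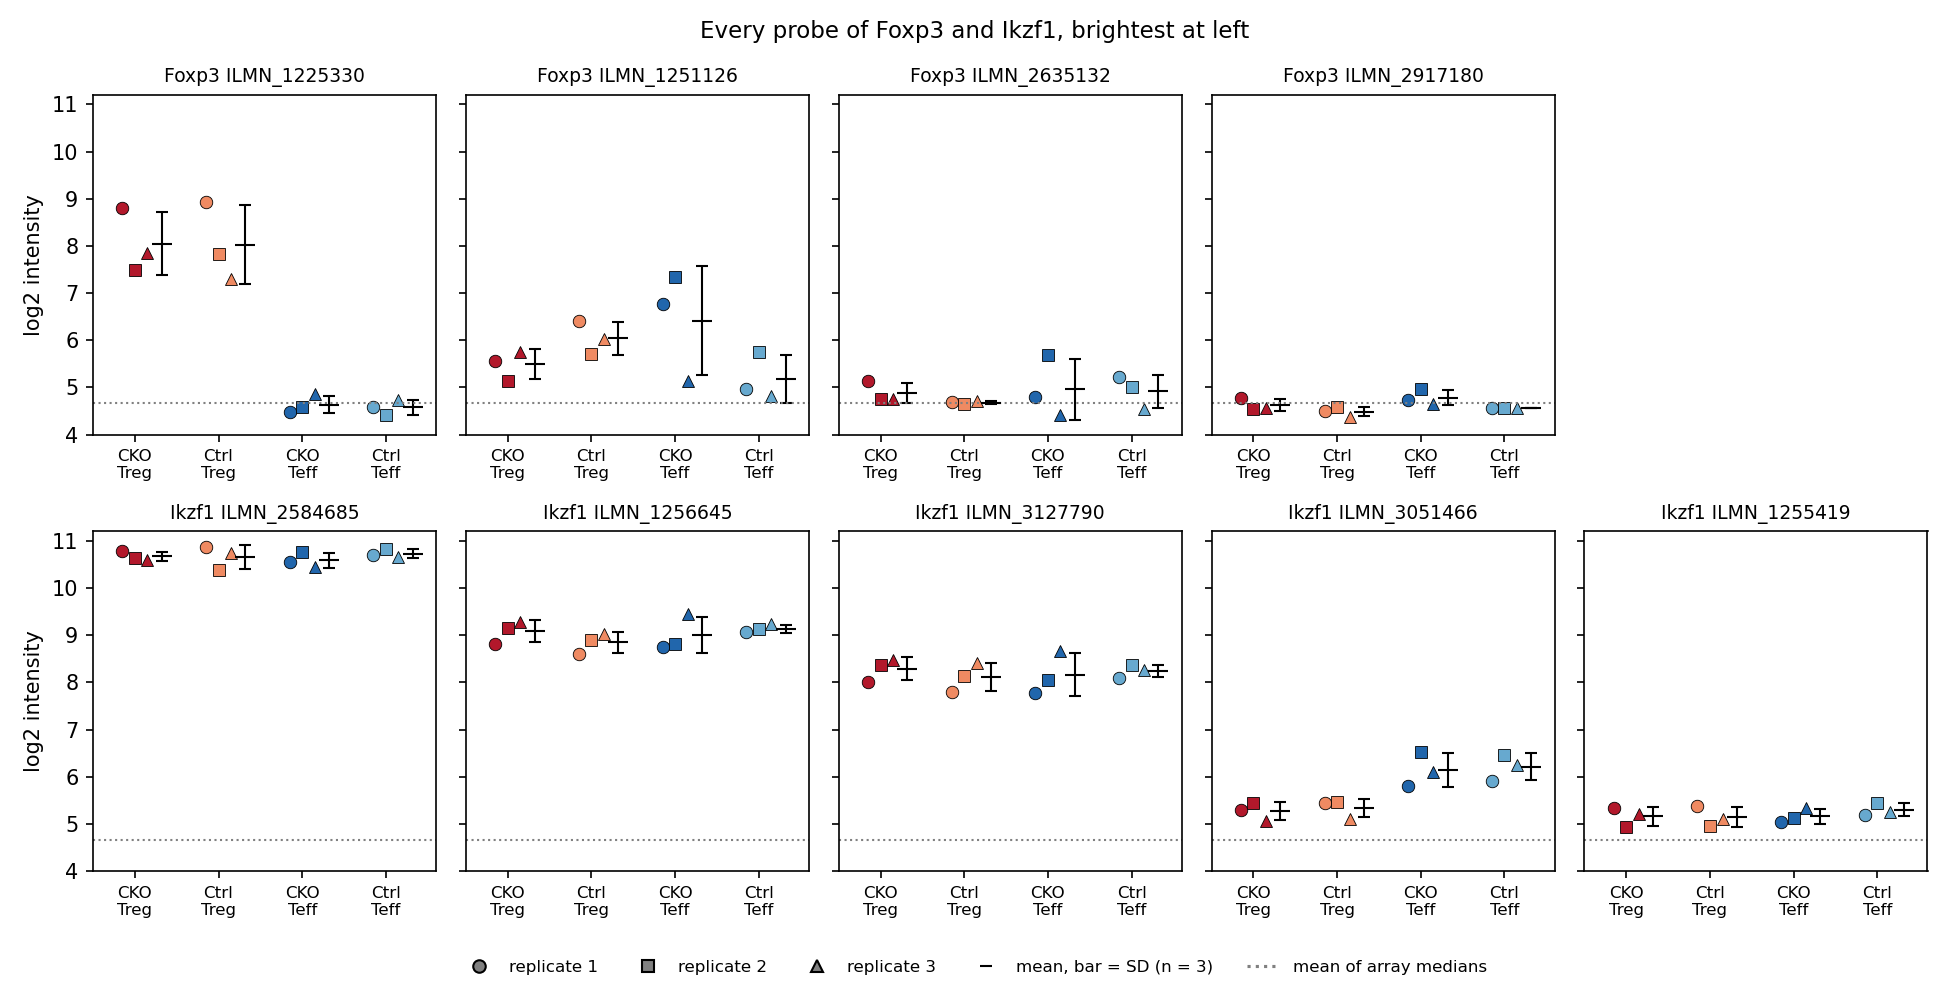
Log2 intensity (vertical axis) of the 4 Foxp3 and 5 Ikzf1 probes, brightest at left, on the 12 arrays by group, with mean ± SD bars (n = 3). Only the brightest Foxp3 probe is higher in both Treg groups than in both Teff groups, and the Ikzf1 probe ILMN_3051466 is lower in Treg (5.06 to 5.46) than in Teff (5.80 to 6.53).

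Ikaros was steady on its brightest probe. ILMN_2584685 of Ikzf1 read 10.78, 10.63 and 10.60 in CKO Treg, 10.87, 10.38 and 10.74 in Ctrl Treg, 10.56, 10.76 and 10.45 in CKO Teff, and 10.70, 10.83 and 10.65 in Ctrl Teff. All groups overlapped. CKO minus Ctrl was 0.01 ± 0.14 for Treg (95% interval −0.31 to 0.33) and −0.14 ± 0.14 for Teff (−0.46 to 0.18). Treg minus Teff was 0.08 ± 0.14 in CKO (−0.23 to 0.40) and −0.07 ± 0.14 in Ctrl (−0.38 to 0.25). These intervals are the narrowest of the 4 genes and exclude a change of 0.5 log2 units in each comparison just given. The interval of the interaction, 0.15 ± 0.20 (−0.30 to 0.60), does not exclude it.

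A dimmer Ikzf1 probe departed from the brightest one. ILMN_3051466, annotated to NM_001025597, read 5.29, 5.45 and 5.06 in CKO Treg and 5.80, 6.53 and 6.10 in CKO Teff. In Ctrl it read 5.44, 5.46 and 5.11 in Treg and 5.91, 6.47 and 6.25 in Teff. Treg and Teff did not overlap in either genotype, as was the case for the brightest probe of 13.7% of all genes in CKO and 14.3% in Ctrl. The differences were −0.88 ± 0.20 in CKO and −0.87 ± 0.20 in Ctrl. Over the 28197 probes with 1 symbol neither passed (limma, adjusted p = 0.174 and 0.143; unadjusted p = 0.00139 and 0.00145), where 0.213% and 0.521% of probes did. With 1 replicate block shared by all groups, a pairing that the arrays of Treg and Teff did not bear out, both passed (adjusted p = 0.0413 in CKO and 0.0299 in Ctrl). The probe was named after its values were seen, and a second probe of the same annotated transcript, ILMN_3127790, averaged 8.29 ± 0.24 in CKO Treg, 8.11 ± 0.30 in Ctrl Treg, 8.16 ± 0.46 in CKO Teff and 8.24 ± 0.13 in Ctrl Teff. ILMN_1256645 (8.85 to 9.14) and ILMN_1255419 (5.14 to 5.30) also had group means within 0.3 of each other. In Ctrl, ILMN_1256645 too was lower in Treg without overlap, by a gap of 0.03. Its Treg minus Teff was −0.29 ± 0.19 in Ctrl (limma, adjusted p = 0.817) and 0.09 ± 0.19 in CKO. For ILMN_3127790 it was −0.12 in Ctrl and 0.13 in CKO, and for ILMN_1255419 −0.16 in Ctrl and −0.005 in CKO.

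Aiolos stayed near the array medians. Ikzf3, on probe ILMN_1216717, read 5.21, 4.50 and 4.85 in CKO Treg, 5.17, 4.67 and 4.83 in Ctrl Treg, 5.10, 5.72 and 4.60 in CKO Teff, and 4.74, 4.90 and 4.90 in Ctrl Teff. It was above the array median on 10 of the 12 arrays, and its highest value was CKO Teff 2. Genotype differences were −0.04 ± 0.27 in Treg (95% interval −0.63 to 0.56) and 0.29 ± 0.27 in Teff (−0.30 to 0.89). Treg minus Teff was −0.29 ± 0.27 in CKO and 0.04 ± 0.27 in Ctrl. Without CKO Teff 1 and 2 the sign turned in Teff (−0.25) and in the CKO comparison of cell types (0.25), so no direction is given.

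Counted over the 4 genes, 1 passed between Treg and Teff in CKO (Foxp3), against 0.355% of all genes, and 2 passed in Ctrl (Foxp3 and Ikzf2), against 1.01%. These 2 comparisons use different arrays, and Foxp3 was the sorting gate in both. Between genotypes limma called 0 of 4 in Treg, where 0.099% of genes passed, and 0 of 4 in Teff, where 0.0165% did. At an unadjusted p under 0.05 there were 1 (Ikzf2) and 0. With pairs 0 of 4 passed in either cell type, against 2.18% and 0.099% of all genes. The interaction called 0 of 4, against 0.0165%, with 0 at an unadjusted p under 0.05, and with pairs 0 of 4, against 0.0413%.

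**Figure D4:**
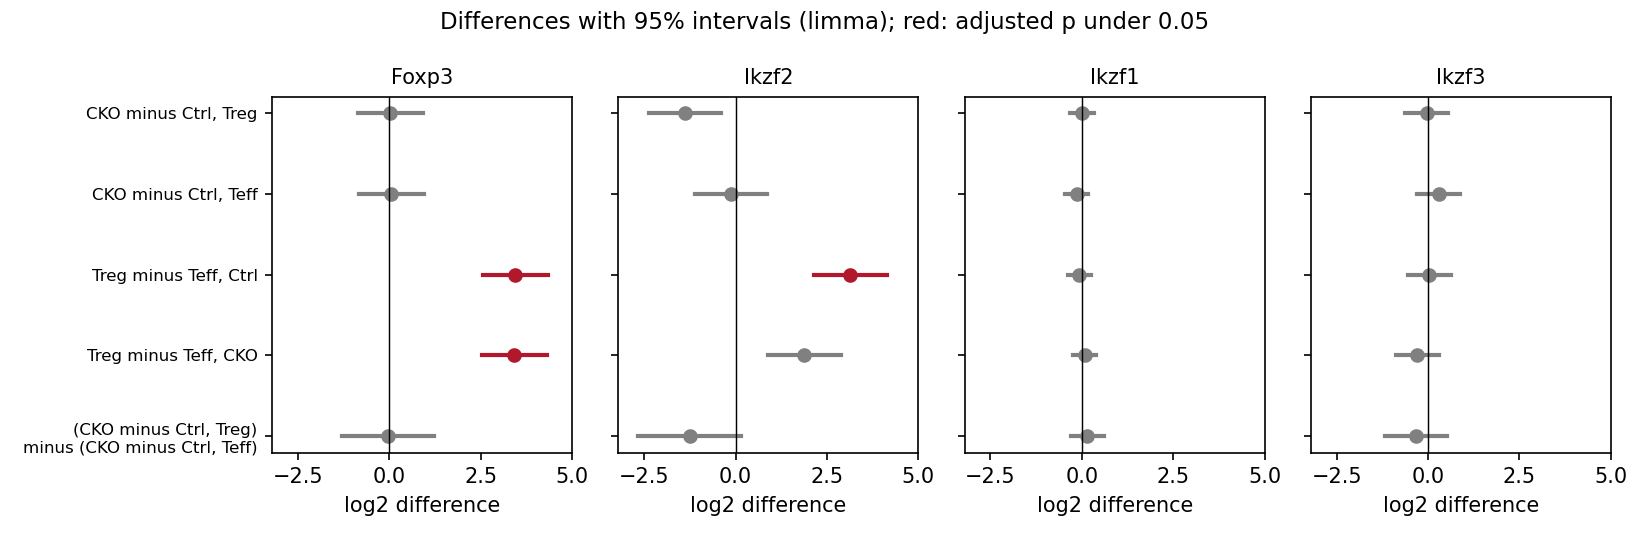
Log2 differences with 95% intervals (horizontal axis) of the brightest probe of Foxp3, Ikzf1, Ikzf2 and Ikzf3 in the comparisons of genotype and cell type and their interaction, red where the adjusted p is under 0.05. Foxp3 passes between Treg and Teff in both genotypes (3.41 in CKO, 3.44 in Ctrl), Ikzf2 in Ctrl (3.14), and the intervals of Ikzf1 are the narrowest.

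Genes whose values over the 12 arrays were most like each member were ranked by Pearson correlation with its brightest probe, as a description over arrays of both cell types, with no test. Foxp3 was followed most closely by Pigz (r = 0.969), Sh3bgrl (0.968) and Ephx1 (0.951). Pigz averaged 6.58 in CKO Treg, 6.61 in Ctrl Treg, 4.81 in CKO Teff and 4.69 in Ctrl Teff, the same order of cell types with little between genotypes. Ikzf2 was followed by Ormdl3 (0.942), Kcnk6 (0.927) and Ephx1 (0.925). Kcnk6 averaged 6.96 in CKO Treg, 7.95 in Ctrl Treg, 5.58 in CKO Teff and 5.46 in Ctrl Teff, so it shared the lower mean of CKO Treg. Ephx1, at 7.25 in CKO Treg and 8.07 in Ctrl Treg, was among the closest to both. The nearest genes were Zbtb16 (0.840) for Ikzf1 and Olfr360 (0.903) for Ikzf3, both members with small spreads.

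Genes that open or hold the Foxp3 locus, such as Smad, Nfat, Rel and Tet factors, were listed next, 20 of 24 of them tested. By limma 0 passed in any of the 5 comparisons, where 0.0165% to 1.01% of all genes did, with 1 to 4 at an unadjusted p under 0.05. List medians lay between −0.12 and 0.14. Rel, the c-Rel subunit of NF-κB, stood at −1.12 ± 0.35 for Treg minus Teff in CKO and −1.14 ± 0.35 in Ctrl (adjusted p = 0.236 and 0.212). Gata3, known for type 2 helper cells and for sustaining Foxp3 in Treg, averaged 9.44 ± 0.36 in CKO Treg and 7.87 ± 0.57 in CKO Teff (1.57 ± 0.37, adjusted p = 0.114). Satb1, a chromatin organiser, read 9.76, 11.05 and 10.18 in CKO Treg, against 10.69, 11.56 and 11.11 in Ctrl Treg. It was lower in each pair and by limma passed with pairs (adjusted p = 0.0263), where 2.18% of all genes did, not without (adjusted p = 0.995). The paired call was lost without pair 1, 2 or 3 (adjusted p up to 0.166).

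Proteins that bind Foxp3 were represented by 17 of 20 genes. Hif1a, the oxygen-sensing factor, was the 1 called between Treg genotypes, where 0.099% of all genes passed. It was higher in CKO Treg by 1.23 ± 0.16, with 8.52, 8.33 and 8.37 in CKO Treg against 7.41, 6.83 and 7.31 in Ctrl Treg (limma, adjusted p = 0.0164). It lost its call without CKO Treg 1, 2 or 3 (adjusted p = 0.122, 0.0879 and 0.0882) and in 7 of 27 alternatives in all. No other member of that list passed in any comparison without pairs, where 0.0165% to 1.01% of all genes did. Hdac7, a class IIa deacetylase, was at 1.43 ± 0.33 for Treg minus Teff in CKO and 1.51 ± 0.33 in Ctrl (adjusted p = 0.111 and 0.0718).

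Foxp1, the forkhead relative that pairs with Foxp3 and maintains naive T cell quiescence, had its lowest signal in CKO Treg. It read 5.75, 6.62 and 6.34 there, against 7.36, 8.02 and 7.71 in Ctrl Treg, and 7.98, 7.37 and 8.51 in CKO Teff against 7.97, 7.74 and 8.65 in Ctrl Teff. The Treg genotypes did not overlap, as was the case for 12.3% of all genes. The difference was −1.46 ± 0.34 (limma, adjusted p = 0.256, and adjusted p = 0.00118 with pairs, where 2.18% of all genes passed). With pairs it stayed past the threshold without pair 1, 2 or 3 (adjusted p = 0.0323, 0.0188 and 0.0359). The interaction, −1.29 ± 0.48, did not pass (adjusted p = 1.00, and adjusted p = 0.0569 with pairs). The other relatives tested were Ikzf5 (Pegasus), at 5.79 ± 0.22 in CKO Treg and 6.04 ± 0.23 in Ctrl Treg, and Foxp4, at 8.98 ± 0.61 in CKO Treg and 8.87 ± 0.44 in Ctrl Treg.

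Genes listed as partners of Ikaros proteins (NuRD and Sin3 corepressor genes, Smarca4, Smarcb1 and Crbn) had 15 of 20 members tested, with no CtBP gene among them. Limma called 0 of them in any comparison, where 0.0165% to 1.01% of all genes passed, with 0 to 4 at an unadjusted p under 0.05. Mta3, a NuRD subunit, read 7.85, 7.56 and 7.58 in CKO Treg and 8.61, 8.57 and 8.68 in Ctrl Treg. These groups did not overlap, as was the case for 12.3% of all genes. By limma the difference of −0.96 ± 0.25 passed with pairs (adjusted p = 0.0179), where 2.18% of all genes did, and not without (adjusted p = 0.331). It too was lost with pairs when pair 1, 2 or 3 was left out (adjusted p up to 0.149). Chd4, the NuRD helicase, stood at −0.63 ± 0.24 for Treg minus Teff in CKO (adjusted p = 0.363).

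Genes that Foxp3 is known to induce in Treg, 14 of 18 tested with Ikzf2 among them, were read beside the level of Foxp3 itself. In Treg the median genotype difference was −0.75, against 0.00 over all genes, and 13 of 14 values were negative. The CD4 T cell, neutrophil and CD8 and NK marker means were lower in CKO in all 3 Treg pairs as well (CD4 T cell set 9.94, 10.04 and 9.68 in CKO Treg, against 10.46, 10.12 and 10.13 in Ctrl Treg). The myeloid means were not (6.96, 6.80 and 6.85 in CKO Treg, against 7.19, 6.21 and 6.55 in Ctrl Treg). The CD8 and NK means of pair 2 lay close together (6.05 in CKO Treg against 6.06 in Ctrl Treg), and single members of these sets did not all follow the means. The part of these markers in the list's values was not tested. Gpr83, an orphan receptor, fell by 2.22 on the log2 scale, with 4.96, 5.03 and 5.57 in CKO Treg against 7.43, 7.59 and 7.20 in Ctrl Treg (limma, adjusted p = 0.000547). Izumo1r (folate receptor 4) fell by 1.48 (adjusted p = 0.00385), although with the mean of its probes it did not pass (adjusted p = 0.176). The Foxp3 signal in the same arrays differed by 0.03 ± 0.40. With pairs 5 of 14 were lower, against 2.18% of all genes passing in either direction, adding Ctla4, Socs2 and Tnfrsf18. Ctla4, the inhibitory receptor, read 11.79, 11.89 and 11.34 in CKO Treg against 13.05, 12.77 and 12.59 in Ctrl Treg (adjusted p = 0.0316 with pairs), and with pairs it was also lower in CKO Teff (adjusted p = 0.0285). The added Treg calls were lost without any 1 pair (adjusted p up to 0.204), except Tnfrsf18 without pair 3 (adjusted p = 0.0242), and the Teff call of Ctla4 without pair 1 (adjusted p = 0.274).

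Between Treg and Teff the induced genes had a median difference of 0.72 in CKO and 1.52 in Ctrl. In CKO 1 of 14 rose, where 0.355% of all genes passed, namely Itgae, the CD103 integrin chain, by 3.75 ± 0.53 (limma, adjusted p = 0.0156). In Ctrl 6 of 14 rose, where 1.01% of all genes passed, namely Ikzf2, Gpr83, Izumo1r, Tnfrsf18, Socs2 and Itgae, the last by 4.64 ± 0.53 (adjusted p = 0.00326). The Itgae call in CKO was lost without CKO Treg 1, 2 or 3 or CKO Teff 1 (adjusted p up to 0.0924), and the Socs2 call in Ctrl without Ctrl Treg 1 or 2 or Ctrl Teff 1 or 2 (up to 0.0840). Over the 14 genes the median interaction was −0.56, against 0.02 over all genes. By limma 1 passed, where 0.0165% of all genes did, namely Gpr83 at −2.07 ± 0.24 (adjusted p = 0.0308). That call was lost in 15 of its 26 alternatives, among them the fits without any of 9 arrays other than CKO Treg 3, Ctrl Treg 3 and CKO Teff 3.

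Genes that Foxp3 is known to repress had 9 of 12 members tested. Between genotypes limma called 0 in either cell type, where 0.099% of all genes passed in Treg and 0.0165% in Teff, with 0 of the list at an unadjusted p under 0.05. In Treg the median genotype difference of these genes was −0.25, against 0.00 over all genes, with 7 of 9 negative, so repressed and induced genes had medians of the same sign. With pairs 1 of 9 was lower in CKO Treg, Satb1 (adjusted p = 0.0263), where 2.18% of all genes passed. Il2, the T cell growth factor gene, was lower in Treg of both genotypes. It read 13.07, 13.39 and 12.75 in CKO Treg against 14.59, 14.82 and 14.33 in CKO Teff, a difference of −1.51 ± 0.23 (adjusted p = 0.0272). In Ctrl it read 13.17, 13.23 and 13.66 in Treg against 14.89, 14.89 and 14.26 in Teff, a difference of −1.33 ± 0.23 (adjusted p = 0.0239). The Teff values of both genotypes lay near the maxima of their arrays, 14.78 to 14.98, and had little room to rise. The groups did not overlap in either genotype, as was the case for 13.7% of all genes in CKO and 14.3% in Ctrl. Each call was lost when 1 of several arrays was left out, with adjusted p up to 0.102 in CKO (without CKO Treg 1 or 3 or CKO Teff 1 or 2) and 0.121 in Ctrl (without Ctrl Treg 1 or 2 or Ctrl Teff 1 or 2).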

How the data were processed

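Total RNA of 12 samples was hybridised as biotinylated cRNA to Illumina mouse arrays, per the labels' protocols. Each deposited value is the log2 intensity of a probe, a scale read from the range. GenomeStudio and limma 3.30.11 are named in the submitters' processing notes. How background and arrays were corrected is not stated there, and the values were used as deposited. Array medians lay between 4.66 and 4.68 and array maxima between 14.78 and 14.98. Quantile normalization and median centring, used below as alternatives, thus started from arrays already on a common scale.

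Of 31641 probes, 28197 have 1 gene symbol, 5 several and 3439 none. Those with 1 symbol that lay above their array's median on at least 3 of 12 arrays (17579) were kept, and the kept probe with the highest mean stood for its gene (12119 genes, 3764 with several probes). Tests used lmFit and eBayes of limma 3.58.1 (R 4.3.3, two-sided), 1 mean per group, all 12 arrays, 10.5 total degrees of freedom, Benjamini-Hochberg adjustment over all genes, threshold 0.05. Single probes were tested in a fit over all 28197. Errors of means are SD and of differences SE. The steps were tested on simulated data.

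Residuals of same-numbered CKO and Ctrl arrays correlated in every pair (0.519 to 0.589 in Treg, 0.348 to 0.737 in Teff), so the numbers were taken as pairs for the genotype comparisons, through a fixed term for replicate number nested in cell type. Between Treg and Teff they ran from −0.266 to 0.325 and no pairing was assumed.

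Members, lists and alternatives were chosen with earlier results of these data known. The lists name genes called, and otherwise those with the smallest unadjusted p, up to 4 per list and comparison. Genes and probes outside that, such as ILMN_1251126, ILMN_3051466 and values carried over between comparisons, were chosen after seeing them. Correlated genes are the closest by Pearson r over 12 arrays. Motifs were searched in RefSeq windows with a script. Alternatives were quantile normalization, median centring, other filters and probe rules, eBayes trend and robust settings, array weights, replicate blocks, only the arrays compared, and leaving out arrays. No raw intensities were analysed here, and the number of arrays limits the precision.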

Additional observations from a re-analysis of the deposited data

Results flagged for a closer look

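For the Foxp3 probe ILMN_1251126 every same-numbered pair was lower in CKO in Treg (−0.83, −0.57 and −0.26) and higher in CKO in Teff (1.79, 1.60 and 0.31). The interaction, Treg genotype difference less Teff genotype difference, was −1.79 (95% interval −3.31 to −0.26), with an unadjusted p of 0.0258 and an adjusted p of 1.00 by limma over all probes, and an adjusted p of 0.184 with pairs. It kept its sign in all 23 alternatives, from −2.43 to −0.50, and passed in 1 of them, with pairs and without replicate number 3 (adjusted p = 0.0290). The probe was flagged for the signs of its pairs, so fits that keep or leave out whole pairs could not turn the sign. The kept sign is therefore no further evidence. CD8 and NK marker means were 7.53, 8.22 and 6.72 in CKO Teff, against 6.77, 6.71 and 6.63 in Ctrl Teff, myeloid marker means were 7.35, 7.90 and 6.65 in CKO Teff, against 6.09, 7.50 and 5.61 in Ctrl Teff, and their part in the probe's signal was not tested. Single members of both sets did not all follow these means. The annotation gives the transcript of the probe but not the position of its sequence.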

How the results depend on the processing

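The adjusted p of Foxp3 between Treg and Teff stayed under 0.05 in both genotypes whichever array was left out. It did not with the mean of its probes (0.56 in CKO, adjusted p = 0.419, and 0.99 in Ctrl, adjusted p = 0.0949), nor in CKO with only the arrays compared (3.41, adjusted p = 0.0516) or without CKO Teff 1 and 2, chosen after seeing the data (3.20, adjusted p = 0.238). Ikzf2 in Treg between genotypes was negative and short of the threshold in 27 of 27 alternatives, −1.83 to −1.08 with adjusted p from 0.0507 to 1.00. With pairs and without number 1, 2 or 3 it was −1.08, −1.70 and −1.37 (adjusted p = 0.269, 0.0610 and 0.134). With a replicate block Ikzf2 between Treg and Teff was 1.88 in CKO (adjusted p = 0.127) and 3.14 in Ctrl (adjusted p = 0.0319), and the block changed no call among the 4 genes. Small differences turned their sign: Foxp3 between genotypes in Treg to −0.045 and Ikzf1 between Treg and Teff in CKO to −0.12 with the mean of probes, Foxp3 between genotypes in Teff to −0.024 and its interaction to 0.14 with array weights, and without CKO Teff 1 and 2 Ikzf3 to −0.25 (Teff genotypes), 0.25 (CKO cell types) and 0.21 (interaction), and ILMN_1251126 to −0.050 (Teff genotypes) and 0.36 (CKO cell types). The cause was not tested.

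Leaving out 1 array gave these ranges in the order Treg genotypes, Teff genotypes, Treg minus Teff in CKO, Treg minus Teff in Ctrl and interaction. Foxp3 ran from −0.35 to 0.49, −0.050 to 0.13, 3.04 to 3.69, 2.98 to 3.81 and −0.40 to 0.43. Ikzf1 ran from −0.13 to 0.11, −0.23 to −0.071, 0.015 to 0.17, −0.17 to 0.077 and 0.0073 to 0.25. Ikzf2 ran from −1.83 to −1.15, −0.46 to 0.20, 1.44 to 2.22, 2.82 to 3.38 and −1.70 to −0.92. Ikzf3 ran from −0.21 to 0.14, 0.0026 to 0.56, −0.56 to −5.4e-05, −0.10 to 0.15 and −0.60 to −0.039, and had no value under the filter at the 75th percentile. With pairs and without number 1, 2 or 3, the signs that turned were those of Ikzf3 in Treg without number 2 (0.028), Foxp3 in Treg without number 3 (−0.24), the Foxp3 interaction without number 2 (0.20) and Ikzf2 in Teff without number 3 (0.28).

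Counts of genes past the threshold were 12 and 2 between genotypes in Treg and Teff, 43 and 123 between Treg and Teff in CKO and Ctrl, and 2 for the interaction. Leaving out 1 array gave 5 to 17, 0 to 52, 16 to 259, 44 to 163 and 0 to 22, and pairs without number 1, 2 or 3 gave 27, 56 and 58 in Treg, 3, 23 and 72 in Teff and 0, 16 and 34 for the interaction. A replicate block within cell type or genotype gave 264 in Treg, 12 in Teff, 20 in CKO and 5 for the interaction, and a block shared by all groups 44 in Treg, 250 in CKO, 333 in Ctrl and 1 for the interaction. Array weights gave 34 in Treg, 245 in CKO and 247 in Ctrl, trend and robust settings 86 in CKO and 4 for the interaction, and the 75th percentile filter 1 in Teff, 82 in CKO and 0 for the interaction. With only the arrays compared limma gave 25 in Treg, 0 in Teff (317 at an unadjusted p under 0.05), 4 in CKO and 29 in Ctrl, and without CKO Teff 1 and 2 it gave 19 in Treg, 0 in Teff, 0 in CKO (687 unadjusted) and 0 for the interaction. Depth is not defined for arrays, and values near the array medians, such as those of Ikzf3, have little room to fall.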

Other observations

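The dimmer probes that departed from the brightest probe of their gene were set beside all other genes in the same way, after their values had been seen. The genes most like the Foxp3 probe ILMN_1251126 over the 12 arrays were Rnf130 (r = 0.935), Trio (0.914), Lgals9 (0.912), Lat2 (0.912) and Neurl3 (0.899), and none of them is among the 5 closest to the brightest Foxp3 probe. Those most like the Ikzf1 probe ILMN_3051466 were Hid1 (0.930), Rfx1 (0.927), Nqo2 (0.920), Zeb2 (0.916) and Casp1 (0.913). These correlations are over arrays of both cell types and have no test.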
